A study of Mus musculus with 4 samples.

Results

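The apolipoprotein genes described here are *Apoa1*, *Apoa2*, *Apoa4*, *Apoa5*, *Apob*, *Apoc1*, *Apoc2*, *Apoc3*, *Apoe* and *Apoh*. They were taken by symbol from the mm9 annotation and make up 10 of its 22367 protein-coding genes. Their positions relative to the nuclear envelope (NE) were read from DamID, in which a Dam methylase fused to lamin B1 marks GATC sites of DNA that touches the nuclear lamina, while Dam alone measures how accessible the DNA is. Stretches where the fusion outweighs Dam alone are lamina-associated domains (LADs). Primary hepatocytes came from C57BL/6 mice aged 12 to 16 weeks that were either wild type (WT) or carried the Tm7sf2/NET47 KO, a deletion in the whole animal of a gene for an NE transmembrane protein that is also a sterol reductase of cholesterol synthesis. The cells of each genotype were exposed for 24 h to a lentivirus for LaminB1-Dam or for the Dam control, which reached only a part of the cells. This gave 4 libraries, 1 for each construct in each genotype, and every library held the pooled DNA of 4 mice. With 1 pooled library pair per genotype there is no spread between animals, so none of the differences below carries an error or a test, and distances on the genome are given as the lists state them.

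The deposited lists give 8107 LADs for WT and 16076 for KO, along with 7787 differential regions (DRs) present as LAD only in WT and 8208 present only in KO. They hold positions and no signal, so the strength of a contact, the reads behind a border and the liver markers of the cells cannot be read from them. The study sequenced the KO libraries less deeply than the WT libraries, and what part of any difference comes from depth cannot be told apart from genotype. LAD borders lay at a GATC site in 98.9% of cases for WT and 99.5% for KO, no LAD was shorter than 10 kb, and the median LAD was 40.8 kb long in WT and 38.8 kb in KO.

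Apolipoproteins are the protein part of the particles that carry cholesterol and triglyceride in plasma, and hepatocytes are their main source together with the intestine. *Apob* encodes the large structural protein of very low density and low density lipoproteins, which stays with its particle from secretion to uptake. The smaller exchangeable apolipoproteins move between particles and set how they are remodelled by lipases and taken up by receptors. Genes at the NE are often silent, whereas genes strongly transcribed in a cell type usually lie in the nuclear interior.

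The borders from which the distances were measured are shown for the 4 loci where the distances differed most between the lists, since the position of a border can be no finer than the GATC sites around it. The sequences are from mm9, plus strand, 5′ to 3′, and the capitals mark the GATC site at the border. For *Apob*, they are the near border of the nearest WT LAD (chr12:8138328-8138371) and the near (chr12:7980314-7980357) and far (chr12:7962915-7962958) borders of a LAD present only in KO. For *Apoh*, they are the near border of the nearest WT LAD (chr11:108313760-108313803) and the near (chr11:108203096-108203139) and far (chr11:108188163-108188206) borders of a LAD present only in KO. For *Apoa2*, they are the near border of the nearest LAD in WT (chr1:173436220-173436263) and in KO (chr1:173409304-173409347). For the *Apoa1* cluster, they are the near border of the nearest LAD in WT (chr9:46322341-46322384) and in KO (chr9:46345926-46345969).
Apob, WT LAD: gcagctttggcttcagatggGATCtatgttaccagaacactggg
Apob, KO LAD, near border: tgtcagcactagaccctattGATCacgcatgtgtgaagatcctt
Apob, KO LAD, far border: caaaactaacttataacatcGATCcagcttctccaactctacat
Apoh, WT LAD: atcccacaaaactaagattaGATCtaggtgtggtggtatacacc
Apoh, KO LAD, near border: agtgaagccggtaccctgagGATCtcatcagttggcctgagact
Apoh, KO LAD, far border: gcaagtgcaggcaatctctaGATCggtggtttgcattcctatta
Apoa2, WT LAD: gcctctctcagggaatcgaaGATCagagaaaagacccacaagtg
Apoa2, KO LAD: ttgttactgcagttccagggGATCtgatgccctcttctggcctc
Apoa1 cluster, WT LAD: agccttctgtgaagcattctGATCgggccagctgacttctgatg
Apoa1 cluster, KO LAD: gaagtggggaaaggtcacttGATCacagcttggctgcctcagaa

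None of the 10 genes had a base inside a LAD of either genotype, and all 10 were therefore called II (interior in both). Among all protein-coding genes, 56.6% were II. The classes that the apolipoprotein genes lacked held 17.9% of all genes for PP (in a LAD in both), 5.43% for PI (overlapping a WT-only DR), 17.1% for IP (overlapping a KO-only DR) and 2.96% for AMB (overlapping both kinds). The II call covered every functional group: the structural gene *Apob*; the high density lipoprotein genes *Apoa1*, *Apoa2* and *Apoa4*; *Apoc2*, the cofactor of lipoprotein lipase, with *Apoa5*, which promotes lipolysis, and *Apoc1* and *Apoc3*, which restrain it; *Apoe*, a ligand for the receptor uptake of remnant particles; and *Apoh*, a plasma glycoprotein that binds phospholipids. A call by overlap depends on length, and 8 of the 10 genes were shorter than the shortest LAD. Their median span was 3.12 kb, against 15.4 kb for all genes and 14.1 kb for II genes. The 10 genes also occupy only 5 loci, and genes of a cluster share their flanking LADs, so they are not 10 separate observations.

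The genes differed in how much GATC sequence was available to measure them. *Apoa2*, on chromosome 1 from 173155185 to 173156510 (plus strand, 4 exons), held 2 GATC sites in 1.33 kb. *Apoa1* held 3 sites in 1.89 kb, while the fragment at its transcription start was only 70 bp long. *Apoh* held 177 sites in 71.0 kb and *Apob* 112 sites in 39.2 kb. The span of *Apob* had a GC content of 42.5% and that of *Apoh* 43.8%, below the 51.7% to 55.7% of the other 8 genes.

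The distance from the gene span to the nearest LAD separated these 8 genes from *Apob* and *Apoh*. In WT the distances ran from 38.1 kb for *Apoh* and 115 kb for *Apob* to 289.9 kb for *Apoc2*, with a median of 275 kb. In KO they ran from 1.55 kb for *Apoh* and 4.12 kb for *Apob* to 307 kb for *Apoa1*, with a median of 269 kb. The other 8 genes lay between 242 and 289.9 kb from a LAD in WT and between 253 and 307 kb in KO. All II genes had a median distance of 394 kb in WT and 116 kb in KO, and all protein-coding genes 95.0 kb and 13.3 kb. The apolipoprotein genes were thus nearer to a LAD than the median II gene in WT, while 8 of the 10 were farther than the median II gene in KO. The nearest LAD was closer in KO for 6 of the 10 genes, a direction that 83.4% of II genes shared, and farther for 4, as in 16.2% of II genes. The 4 are the neighbors *Apoa1*, *Apoc3*, *Apoa4* and *Apoa5*, which share their nearest LAD, so by locus only theirs was farther. The median difference, KO minus WT, was -6.83 kb for the 10 genes and -153 kb for all II genes. The value of -6.83 kb is that of the neighbors *Apoc2*, *Apoc1* and *Apoe*, which also share their nearest LAD.

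**Figure D1:**
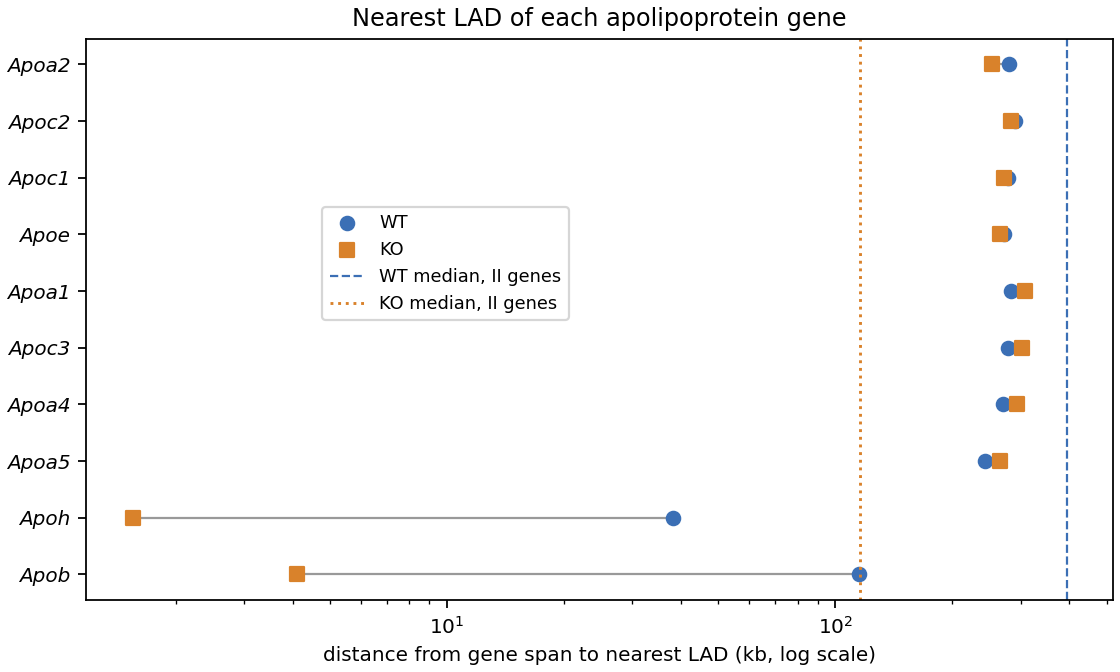
Distance in kb (log axis) from the span of each apolipoprotein gene to the nearest LAD in WT (circles) and KO (squares), with the medians of all 12654 II genes as vertical lines. Points for 8 genes lie close together between 242 and 307 kb, whereas *Apoh* goes from 38.1 to 1.55 kb and *Apob* from 115 to 4.12 kb.

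*Apob* and *Apoh* were the 2 of the 10 genes with a KO LAD within 10 kb and no WT LAD within 10 kb. This was the case for 8.08% of all II genes, and the opposite pattern, which none of the 10 showed, for 1.19%. In both, a LAD absent from the WT list lay just before the annotated start. Both LADs were short, and they are left out when only LADs of at least 20 kb are counted. The distance of *Apob* in KO was then 81.9 kb, still below the 115 kb in WT, while that of *Apoh* was 73.4 kb, above the 38.1 kb in WT.

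*Apob* (ENSMUSG00000020609.8) spans chromosome 12 from 7984454 to 8023641 on the plus strand, with 29 exons. In WT the nearest LAD on the upstream side ended 129.7 kb before its start and the nearest on the downstream side began 115 kb after its end. In KO a LAD of 17.4 kb, from 7962938 to 7980336, ended 4117 bp before the start. It held 49 GATC sites and no protein-coding gene, and none of its bases were in a WT LAD. The gap between it and *Apob* held 10 GATC sites. On the other side, the WT LAD from 8138351 to 8187474 lay wholly inside a KO LAD from 8105494 to 8209929, which was 104 kb long and extended past it in both directions by KO-only DRs. This LAD also holds no protein-coding gene and came to 81.9 kb from *Apob*. LADs were closer on both sides in KO, and *Apob* itself stayed outside them. Farther upstream, the long WT LAD from 5405436 to 7818314 was overlapped by 22 KO LADs that kept 85.9% of its bases, and the WT-only DR nearest to *Apob* was 199 kb away.

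*Apoh* (ENSMUSG00000000049.5) is annotated on chromosome 11 from 108204668 to 108275710 on the plus strand. The coding transcript with the most exonic bases has 8 exons and starts at 108256607, inside the span. The KO LAD next to it, from 108188186 to 108203118, was 14.9 kb long with 28 GATC sites, and no WT LAD overlapped it. It ended 1549 bp before the annotated start, with 1 GATC site in between, but 53.5 kb before the start of that transcript. Measured from the transcript, the nearest LAD was on the downstream side in both genotypes, 38.1 kb away for WT and 28.6 kb away for KO. The KO LAD lies inside *Prkca*, a protein kinase C gene on the minus strand whose span shares 575 bases with that of *Apoh*. *Prkca* was AMB, and LADs took up 2.21% of its span in the WT list and 3.64% in the KO list. On the downstream side, the WT LAD from 108313783 to 108609989 lay in *Ccdc46*, and 6 KO LADs kept 47.4% of its bases. *Ccdc46* was PI, and LADs took up 86.5% of its span in the WT list and 38.6% in the KO list. *Prkca* and *Ccdc46*, the genes adjacent to *Apoh* on either side, thus differed between the lists, while *Apoh* was outside LADs in both.

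**Figure D2:**
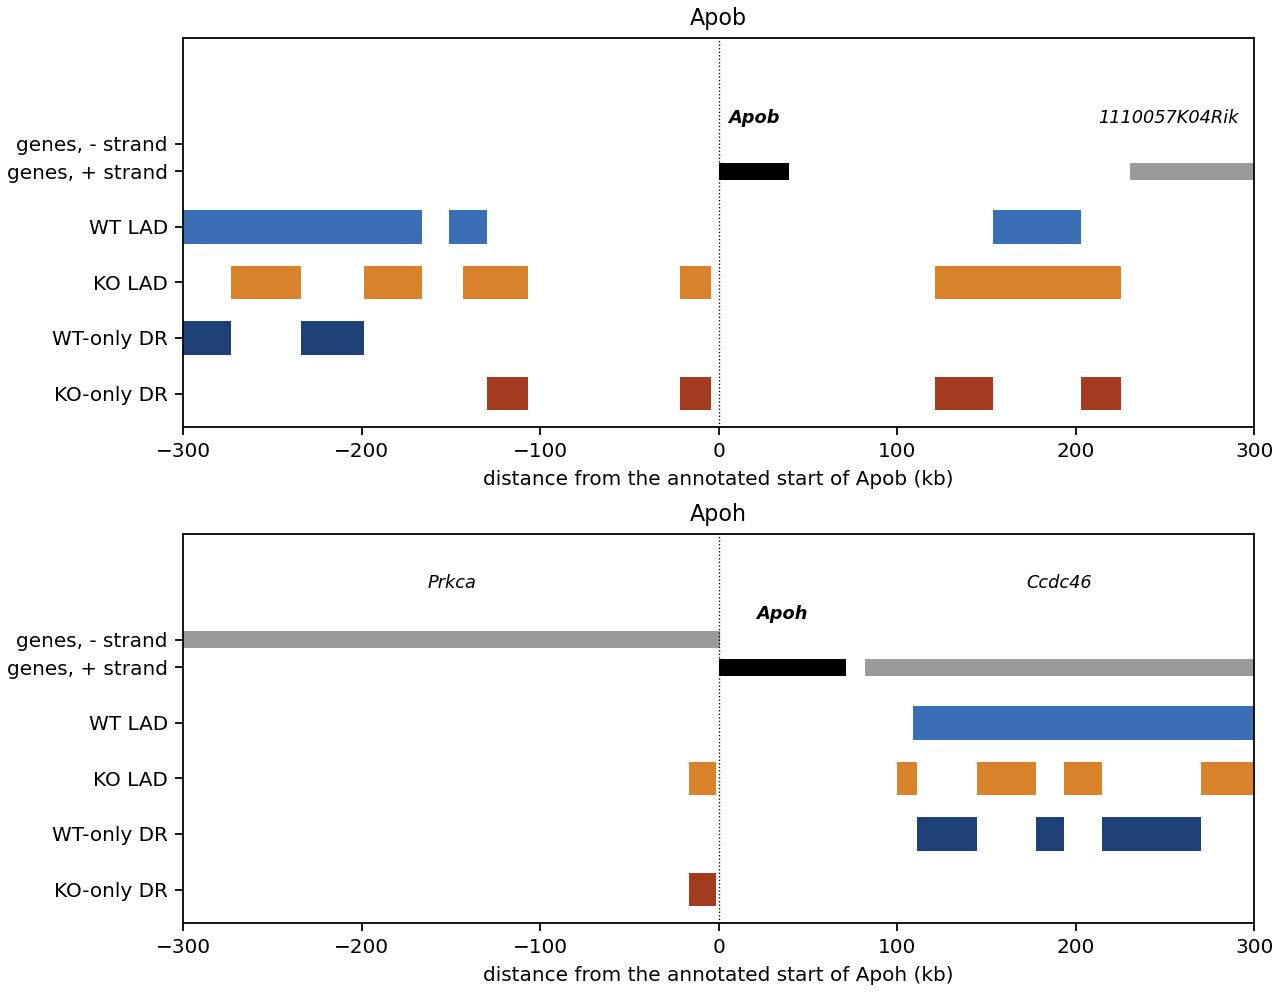
LADs and DRs of WT and KO within 300 kb of the annotated starts of *Apob* and *Apoh*, with protein-coding genes on each strand above them and the described gene in black. The x axis is the distance from the start in kb; a KO LAD without a WT counterpart ends 4.12 kb before *Apob* and 1.55 kb before *Apoh*, and the WT LAD downstream of *Apoh* is broken into separate KO LADs.

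*Apoa1*, *Apoc3*, *Apoa4* and *Apoa5* form a cluster of 43.3 kb on chromosome 9, from 46036663 to 46080002, with 98 GATC sites. *Apoa1* (46036663 to 46038549, 4 exons), *Apoa4* (46048779 to 46051542, 3 exons) and *Apoa5* (46076716 to 46080002, 4 exons) are on the plus strand and *Apoc3* (46041016 to 46043719, 4 exons) is on the minus strand. The cluster brings together the main protein of high density lipoprotein and both an inhibitor and a promoter of triglyceride lipolysis. The distances in WT were 284 kb for *Apoa1*, 279 kb for *Apoc3*, 271 kb for *Apoa4* and 242 kb for *Apoa5*. In KO each was 23.6 kb larger, at 307, 302, 294 and 266 kb in the same order. These were the 4 genes that were farther from a LAD in KO. The WT LAD that set the distance, from 46322364 to 46332591, was 10.2 kb long with 20 GATC sites and no gene, and it was absent from the KO list as a whole. The next LAD, from 46345949 in KO, was 13.8 kb long, and 93.8% of it was also in a WT LAD. The difference of 23.6 kb thus rests on 1 short WT LAD close to the minimum length of the list. With LADs of at least 20 kb, the difference for each gene of the cluster was -1377 kb, closer to a LAD in KO. On the other side, the nearest WT LAD was 4072 kb from *Apoa1*, whereas a KO-only LAD of 18.5 kb in *Dscaml1*, a neuronal cell adhesion gene, was 583 kb from it. The neighboring genes *Sik3*, which encodes a kinase, and *Zfp259* were II, at 290.1 and 232 kb from a LAD in WT and 314 and 255 kb in KO.

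*Apoc2*, *Apoc1* and *Apoe* lie within 27.6 kb of chromosome 7, from 20256928 to 20284515, all on the minus strand, with 71 GATC sites. *Apoc2* (20256928 to 20266772) has 5 exons, *Apoc1* (20274833 to 20278007) has 3 and *Apoe* (20281458 to 20284515) has 4. The span of *Apoc4*, a further apolipoprotein gene of the cluster, overlaps that of *Apoc2* by 3323 bases and was II too. In WT the distances were 289.9 kb for *Apoc2*, 279 kb for *Apoc1* and 272 kb for *Apoe*, and in KO they were 283, 272 and 265 kb, a difference of -6.83 kb in each case. The WT LAD that set these distances ran for 808 kb from 20556674 and held 24 protein-coding genes, among them *Ceacam20*, *Nlrp9b* and many *Vmn1r* genes for vomeronasal receptors. In KO, 3 LADs kept 97.1% of it, with a single WT-only DR of 15.0 kb at *Nlrp9b*. The KO border lay at 20549840, by *Ceacam20*. Toward lower coordinates, the nearest WT LAD held *Psg19*, *Psg17* and *Mill2* at 832 kb from *Apoc2*, while a KO-only LAD of 13.3 kb at *Nanos2*, a germ cell gene, was 683 kb away.

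*Apoa2*, for the other abundant protein of high density lipoprotein, was 279.7 kb from a LAD in WT and 253 kb in KO, a difference of -26.9 kb. The WT LAD began at 173436243 and held *Gm9765* and *Itln1*, which encodes an intelectin. In KO a LAD of 15.8 kb from 173409327, without a gene and without a WT counterpart, lay in front of it. Part of *Itln1* lay in a WT-only DR of 31.2 kb. When LADs under 20 kb were left out, *Apoa2* was 68.7 kb farther from a LAD in KO, so the direction for *Apoa2* rests on this short LAD. On the far side the nearest LAD was 1095 kb away in WT, at *Ddr2*, and 771 kb away in KO, where a LAD of 10.9 kb in *Nos1ap* had no WT counterpart. The adjacent genes *Nr1i3*, a nuclear receptor for xenobiotics, *Tomm40l* and *Fcer1g* were II as well.

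**Figure D3:**
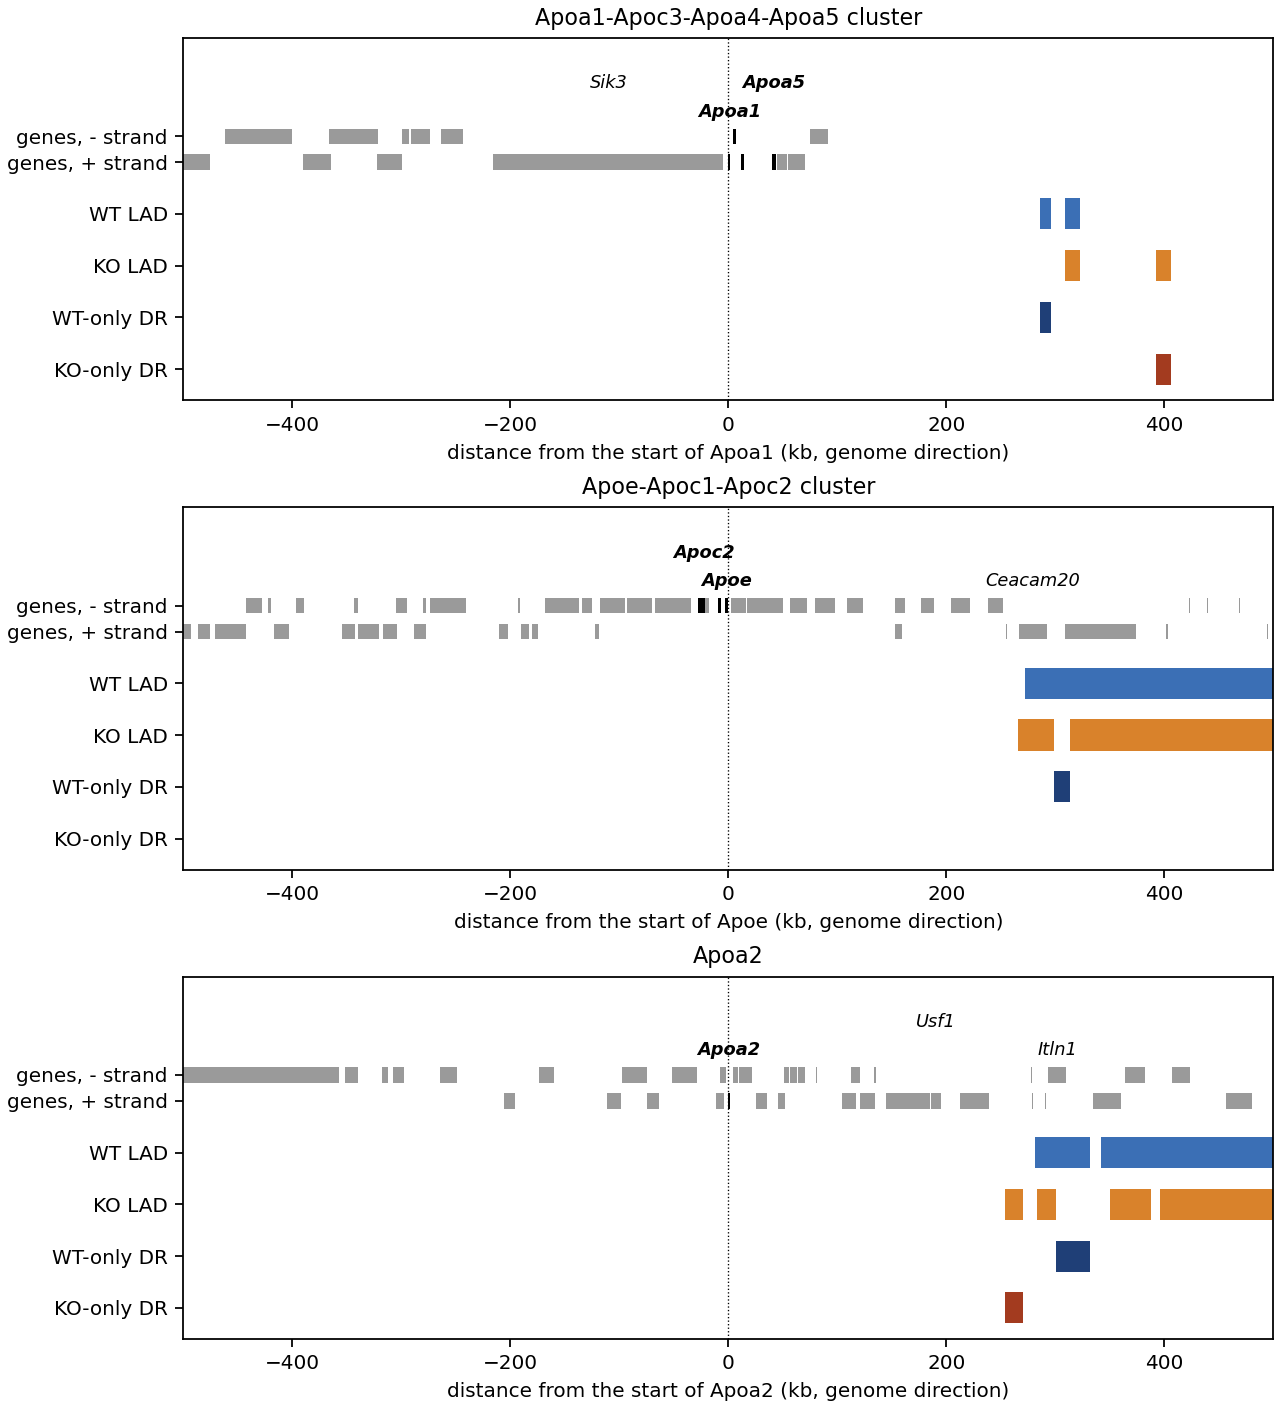
LADs and DRs within 500 kb of *Apoa1*, *Apoe* and *Apoa2* in the direction of the genome, with protein-coding genes on each strand (described genes in black). In all 3 panels the nearest LADs lie to the right at more than 240 kb; the left 500 kb are free of LADs in both genotypes.

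The stretch without LADs around each locus was shorter in KO for all 10 genes, as it was for 93.4% of the II genes outside LADs of both genotypes. Around the *Apoa1* cluster it went from 4358 kb in WT to 892 kb in KO, and the protein-coding genes wholly inside it from 79 to 15. Around *Apoa2* it went from 1376 to 1025 kb with 43 and 33 genes, and around the *Apoe* cluster from 1131 to 976 kb with 59 and 55 genes. The stretches around *Apoh* and *Apob* were the shortest of the 5 loci in both genotypes. *Apoh* lay in a stretch of 510.0 kb in WT and 101 kb in KO, and *Apob* in a stretch of 284 kb in WT and 125 kb in KO, and each was the only protein-coding gene wholly inside its stretch in either genotype. *Apoh* took up 13.9% of its stretch in WT and 70.2% in KO, and *Apob* 13.8% and 31.3%. The KO stretch as a share of the WT stretch, computed gene by gene, had a median of 32.3% over the 10 genes, 44.1% over the 5 loci and 37.8% over the II genes, so the order depends on counting the *Apoa1* cluster once or for each of its genes.

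**Figure D4:**
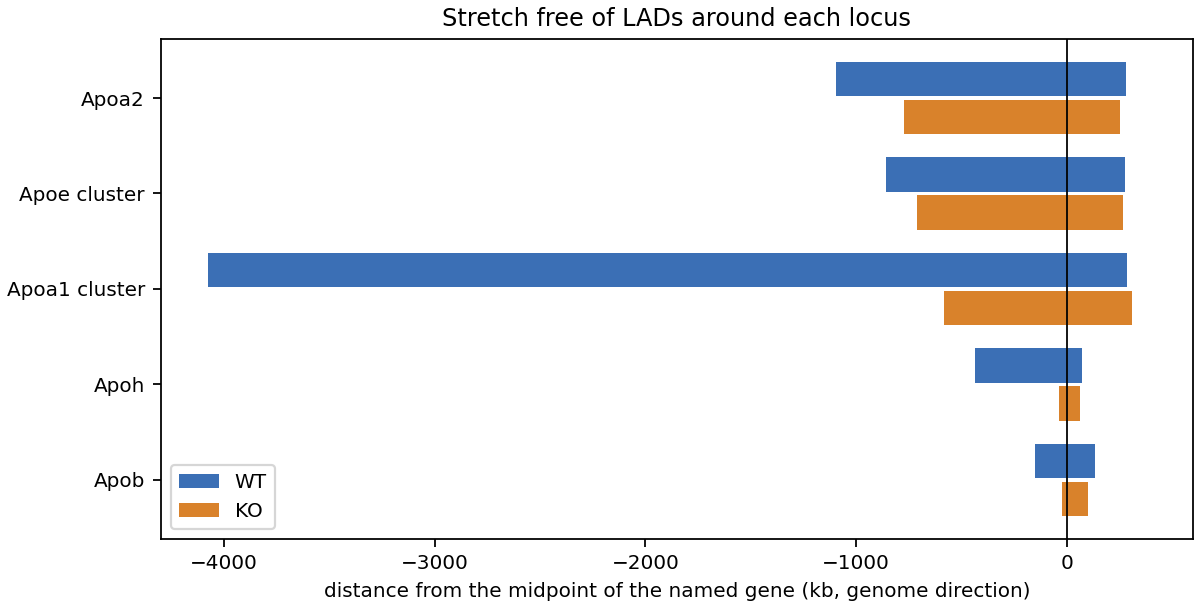
Stretch free of LADs around each locus in WT and KO, in kb from the midpoint of the named gene (*Apoe* and *Apoa1* stand for their clusters). Each KO bar is shorter than its WT bar, by the widest margin at the *Apoa1* cluster, from 4358 to 892 kb.

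Within 100 kb of the gene midpoint, 8 genes had no LAD in either genotype. *Apob* had 0% of this window in LADs in WT and 8.70% in KO. *Apoh* had 13.2% in WT and 13.3% in KO, with 12.2% of the window in WT-only DRs and 7.47% in KO-only DRs, the former on its downstream side and the latter on its upstream side. Within 500 kb, *Apoh* had the largest change of the 10 genes, from 40.1% to 20.9%. *Apob* went from 38.5% to 40.0% and *Apoa2* from 20.9% to 17.6%, while *Apoe* had 22.6% and 21.8% and *Apoa1* 2.32% and 2.72%.

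Within 1000 kb, the *Apoa1* cluster stood out as poor in LADs, at 2.01% in WT and 8.56% in KO for *Apoa1*, with 3 and 10 LADs. *Apoe* had 42.7% and 43.4%, *Apob* 44.2% and 43.0%, *Apoa2* 24.6% and 28.2%, and *Apoh* 33.8% and 22.8%. The medians over the 10 genes were 29.2% in WT and 25.5% in KO, between the 11.2% and 15.7% of II genes and the 32.4% and 34.6% of all genes. Gene by gene, the share was higher in KO for 8 of the 10, with a median difference of 2.17 percentage points, beside 2.24 for II genes and 2.13 for all genes. These 8 are *Apoa2* and the genes of the *Apoe* and *Apoa1* clusters, whose windows nearly coincide. By locus, the difference was 3.65 points for *Apoa2*, 0.695 for *Apoe*, 6.55 for *Apoa1*, -11.0 for *Apoh* and -1.27 for *Apob*. The median thus depends on counting each cluster gene separately. The number of LADs in this window was larger in KO for every locus, from 2 to 11 around *Apoa2*, 3 to 9 around *Apoe*, 10 to 17 around *Apoh* and 3 to 17 around *Apob*. The surroundings of *Apob* thus had more LADs of shorter length over nearly the same share of sequence.

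The apolipoproteins act with enzymes, receptors and transcription factors, and 104 genes of this kind were placed in the same classes in 6 lists. Of these, 88 were II, 2 were PI, 12 were IP, 2 were AMB and none were PP, beside 56.6%, 5.43%, 17.1%, 2.96% and 17.9% of all genes. Among the 88 II genes, 80 were closer to a LAD in KO and 8 were farther, beside 83.4% and 16.2% of all II genes. The lists were chosen with results of these data known, so their shares are a description. Some of their genes are neighbors that share a flanking LAD.

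Among 28 other apolipoproteins and lipoprotein-bound proteins, 24 were II and 4 were IP, beside 56.6% and 17.1% of all genes. The IP genes were *Apoo*, a protein of the mitochondrial inner membrane despite its name, with 76.1% of its span in KO-only DRs, *Apol11b* with 94.3%, *Apol11a* with 65.2% and *Pon3*, a paraoxonase carried on high density lipoprotein, with 12.8%.

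In the list for assembly and secretion, 16 of 18 genes were II and 2 were IP, beside 56.6% and 17.1% of all genes. Of these 16 II genes, 11 were closer to a LAD in KO and 5 were farther, beside 83.4% and 16.2% of all II genes. Most of the 5 lie in pairs of neighbors that share a flanking LAD, so they are not separate observations. *Mttp*, the microsomal transfer protein that loads lipid onto the *Apob* product, was 18.4 kb from a LAD in WT. In KO it had 28.0% of its span and 5 of its 20 exons in 2 KO-only DRs, and its transcription start lay in the LAD from 137800052 to 137817314 of chromosome 3. *Abca1*, the transporter that loads lipid onto the *Apoa1* product, had 26.7% of its span and 22 of its 50 exons in a KO-only DR of 34.5 kb on chromosome 4, from 53058265 to 53092717. Its start was outside LADs in both genotypes, 5.54 kb from the nearest in KO.

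The *Apob* transcript is edited by a complex of Apobec1 with RNA-binding cofactors. In that list 3 of 4 genes were II and 1 was IP, beside 56.6% and 17.1% of all genes. The IP gene was *A1cf*, with 22.7% of its span and 5 of its 12 exons in a KO-only DR of 18.3 kb on chromosome 19. *Apobec1*, the deaminase, was II and lay 120.0 kb from a LAD in WT and 47.9 kb in KO.

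Of 14 genes for lipolysis and remodelling, 13 were II and 1 was IP, beside 56.6% and 17.1% of all genes. The IP gene was *Pcsk6*, a proprotein convertase, called through 0.431% of its span. *Usf1*, a transcription factor in that list, was 185 kb from *Apoa2*, and its distance to a LAD was 87.0 kb in WT and 60.1 kb in KO.

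In the receptor list 9 of 14 genes were II, 1 was PI, 3 were IP and 1 was AMB, beside 56.6%, 5.43%, 17.1% and 2.96% of all genes. *Vldlr*, the receptor for very low density lipoprotein, was PI, a WT-only DR taking up 74.3% of its span. *Cd36*, a fatty acid and lipoprotein scavenger receptor, was IP with 42.7%, *Lrp2*, or megalin, with 33.2% and *Stab2*, a scavenger receptor of endothelium, with 8.52%. *Cd36* was already partly in a LAD in WT, with 32.8% of its span, and had 80.3% in KO LADs. *Cubn*, which pairs with megalin, was AMB. *Sdc1*, a heparan sulfate proteoglycan that takes up remnants, lies 754 kb from *Apob* and was 268 kb from a LAD in WT and 18.4 kb in KO.

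Among 26 regulators of apolipoprotein transcription, 23 were II, beside 56.6% of all genes. The classes PI, IP and AMB held 1 gene each, beside 5.43%, 17.1% and 2.96% of all genes. All 23 II genes were closer to a LAD in KO, as were 83.4% of all II genes. *Ppargc1a*, a coactivator of hepatic metabolic genes, was PI with 42.2% of its span in WT-only DRs, *Nr2f1* was IP with 20.4% and *Rora* was AMB. *Foxa3*, a liver pioneer factor 648 kb from *Apoc2*, was 173 kb from a LAD in WT and 25.1 kb in KO. The criterion that *Apob* and *Apoh* met, a KO LAD within 10 kb and no WT LAD within 10 kb, was also met by *Foxa1*, with distances of 21.0 kb for WT and 1.62 kb for KO, and, in the same order, by *Foxa2* with 115 and 6.17 kb, *Syncrip* with 90.9 and 6.87 kb, and *Apol10a* with 3153 and 9.17 kb. These genes and *Apobec1* were named after their values were seen.

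**Figure D5:**
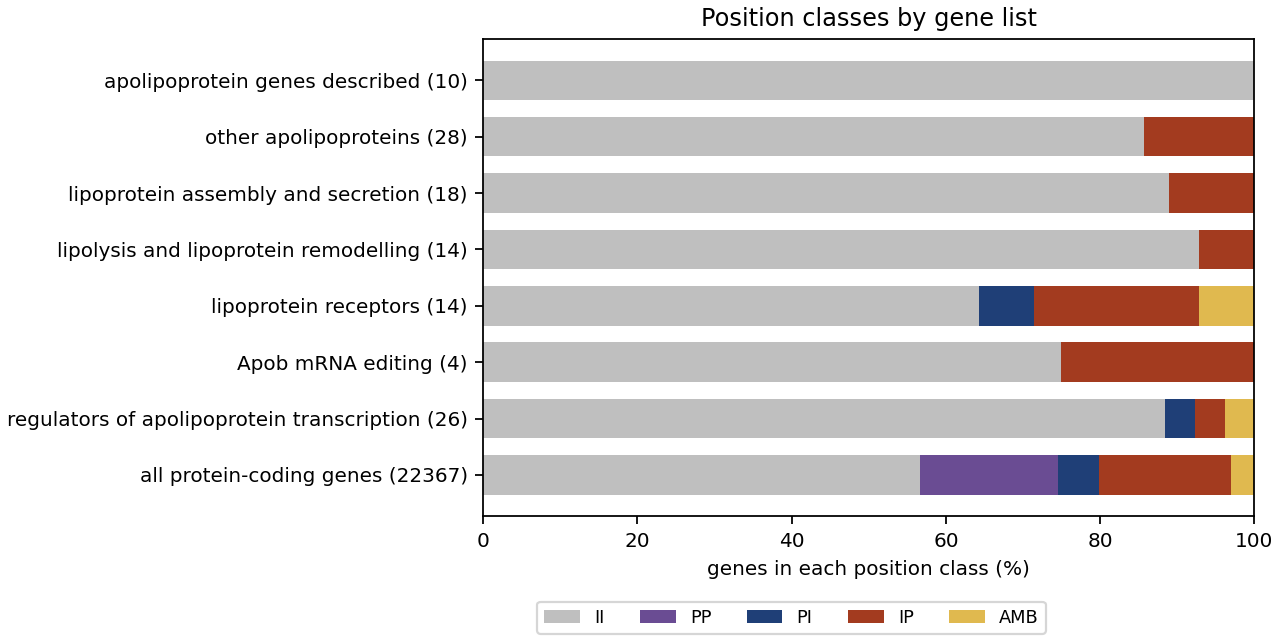
Percent of genes in each position class for the 10 apolipoprotein genes, the 6 lists of related genes and all 22367 protein-coding genes, with the number of genes in parentheses. The bar of the 10 apolipoprotein genes is wholly II, the 6 lists hold no PP gene, and 56.6% of all genes are II.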

How the data were processed

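DNA of the 4 DamID libraries was analyzed through the deposited intervals, which hold positions only (no counts, signal or score). According to the study's methods, the authors took the log2 ratio of LaminB1-Dam to Dam only for each DpnI fragment on mm9 and segmented it into LADs with DNAcopy; the submitters' processing notes name BWA and limma without a version. The 2 DR lists hold stretches of at least 10 kb left after subtracting the LADs of the other genotype, and repeating the subtraction gave 0 differences. Genes are GENCODE spans on NCBIM37, the same assembly as mm9, and positions are 1-based. Overlap needed at least 1 base. Distances run from the span to the nearest LAD border. Python 3.11.15, pysam 0.24.0 and matplotlib 3.10.9 were used, and the interval steps gave 0 errors on simulated data. The 10 members and the lists were chosen with earlier results of these data known. Text names the 10 genes, adjacent genes, genes in the nearest LADs and DRs, list genes called PI or IP (at most 6 a list), and list genes within 1 Mb of a member. Alternatives changed the gene part, overlap, LAD length, gap joining and window. Read depth is not in the lists. The expression, FISH and human data are not analysed here. Some list and neighboring genes are not reported here.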

Additional observations from a re-analysis of the deposited data

How the results depend on the processing

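No paired analysis was possible because each genotype has 1 library per construct, and for the same reason no replicate could be left out. Values were counted as unmoved within a factor of 1.5. The class II of the 10 genes held under all alternatives but 100 kb centered on the gene, where 2 genes (*Apob* and *Apoh*) became IP, beside 27.1% of all genes. As no gene had a base in a LAD, only gap joining and this wider window could have changed the class. The other alternatives used the span, or a part of it, with the same or fewer LADs and had to return II. With LADs of at least 20 kb, the distance KO minus WT turned to 68.7 kb for *Apoa2*, -1377 kb for *Apoa1*, *Apoc3*, *Apoa4* and *Apoa5*, and 35.3 kb for *Apoh*. With LADs of at least 50 kb, it turned to 115 kb for *Apoa2*, 41.6 kb for *Apoc2*, *Apoc1* and *Apoe*, and 2493 kb for *Apoh*, and it came to 0.0240 kb for the 4 genes of the *Apoa1* cluster. The median KO distance was then 1463 kb, 1 gene (*Apob*) was nearer in KO, and the median KO coverage within 1000 kb was 9.03%. Within 100 kb, median coverage was 0% in both genotypes. For the lists, 6 genes of 104 were IP and 1 PI by the annotated gene start only, beside 12% and 2.23% of all genes, and 26 were IP with 100 kb centered on the gene, beside 27.1%. Measuring from the span of the coding transcript was added after seeing the data and moved *Apoh* to -9.50 kb. From the annotated start of the gene span, which is not the start of that transcript, *Apoh* was at -108 kb. The depth behind a single LAD is not given in the lists. The cause of these changes was not tested.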

Other observations

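The *Apol* genes, which encode an intracellular and secreted apolipoprotein L family, lie in a cluster on chromosome 15 and were looked at as a family after their values were seen. In the list used here, 12 of them lie between 76875159 and 77585678. In WT they were 2720.3 to 3423 kb from the nearest LAD, and in KO 0 to 443 kb. All 12 were closer to a LAD in KO, a direction that 83.4% of all II genes shared. That share covers II genes only, whereas an IP gene overlaps a KO LAD by definition. Of the 12, 10 were called II and 2 were called IP (*Apol11a* and *Apol11b*), beside 56.6% and 17.1% of all genes. In WT the nearest LAD was the same for all 12, whereas in KO separate LADs over *Apol11a* and *Apol11b* lay inside the cluster. As neighbors in a cluster, the 12 genes are not separate observations. The 4 *Saa* genes on chromosome 7, for apolipoproteins of high density lipoprotein, were II, beside 56.6% of all genes. They lay 206 to 246 kb from a LAD in WT and 184 to 214 kb in KO. All 4 lie between 53967368 and 54009684, so they are not separate observations either.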
